A study of Mus musculus with 24 samples.

Results

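The genes described here encode dual specificity phosphatases that act on mitogen-activated protein (MAP) kinases: Dusp1, Dusp2, Dusp3, Dusp4, Dusp5, Dusp6, Dusp7 and Dusp16. Members were found by gene symbol in the platform annotation, which gave 16 probes for 7 of the 8 genes. No probe used here carried the symbol Dusp5, a nuclear phosphatase of ERK, so that gene was not analysed here. All 7 measured genes passed the filter on dim probes, among 8201 features tested in all, and 13 of their 16 probes were kept.

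Transcripts were measured on 24 single-colour Illumina bead arrays of macrophages derived from the bone marrow of female C57BL/6 mice that were 6 weeks old. Control cells and cells given a BET bromodomain inhibitor (labelled "BET treat") were sampled at 0, 1, 2 and 4 h of lipopolysaccharide (LPS), with 3 replicates in each of the 8 groups. LPS is a component of bacterial outer membranes that Tlr4 senses, and bromodomains are protein modules that bind acetylated histones. The study compared the response to LPS with and without the inhibitor. The labels used here name neither the compound nor the doses of inhibitor and LPS, and record no pre-treatment time. No genotype other than the strain is labelled for any group.

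LPS activates the MAP kinases ERK, JNK and p38 in macrophages through a cascade of upstream kinases. Dual specificity phosphatases switch these kinases off by removing phosphate from both the threonine and the tyrosine of the activation loop. Dusp1, Dusp2 and Dusp4 encode inducible nuclear enzymes, Dusp6 and Dusp7 encode cytoplasmic enzymes with a preference for ERK, and Dusp16 encodes an enzyme with a preference for JNK and p38. Dusp3 encodes a small atypical member that lacks the MAP kinase binding domain of the others. Mice that lack Dusp1 are known for excess cytokine production after LPS.

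Levels are the deposited log2 intensities of a gene's brightest kept probe, and differences are between group means on the log2 scale (3 arrays against 3). The standard error after ± is limma's, from a gene's variance pooled over all groups and drawn towards that of other features. It is thus the same for every pair of groups and does not measure the spread of only the arrays compared. Where a gene varied widely in other groups, its standard errors and intervals are widened by them. A gene was called when limma's p, adjusted by Benjamini-Hochberg over all 8201 features, was under 0.05. The labels do not say that replicates came from separate animals, although the design text calls them biological, so the p-values measure the spread between these samples. The arrays measure RNA of whole cultures, in which fewer cells of a type and less RNA per cell cannot be told apart. Levels of different probes are not compared with each other.

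All 8 macrophage marker genes with a probe were kept, and 7 of them lay above the background floor of 6.455 on every array. None of the T cell, B cell, dendritic cell, erythroid or stromal markers was kept. Of 6 neutrophil and precursor markers with a probe, 2 were kept, S100a8 and Mpo. S100a8 ran from 9.395 to 10.558 and lay above the floor on all 24 arrays. Mpo ran from 5.966 to 8.32 and lay above it on 19. The mean level of the 6 markers, which averages these with markers near or below the floor, ran from 6.77 to 6.99 over the 8 groups. The arrays of replicate 1 stood apart: their root mean square deviation from the group means was 0.199 to 0.246 log2 units, against 0.116 to 0.173 for replicate 2 and 0.138 to 0.185 for replicate 3. Samples with the same number deviated together across groups, so members' calls that changed without replicate 1, or with the replicate number fitted as a block, are given beside the results or with the other left-out replicate sets.

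**Figure D1:**
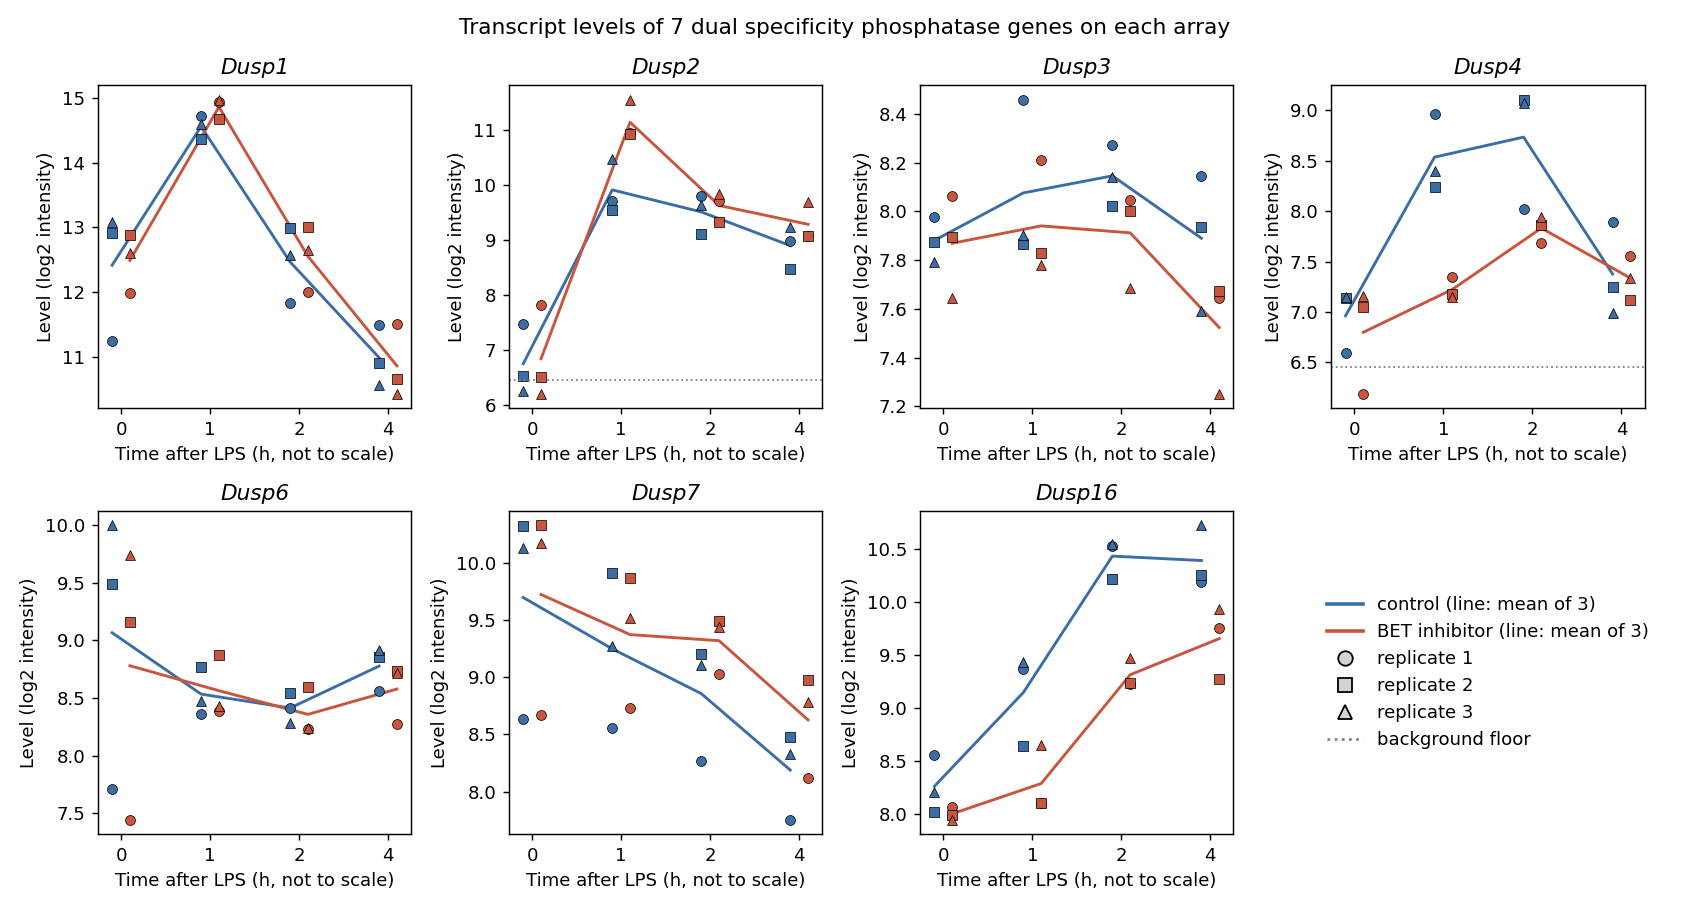
Levels of the 7 measured genes on each array (log2 intensity, y axis) at 0, 1, 2 and 4 h of LPS (x axis, not to scale), in control (blue) and inhibitor-treated (red) cells; symbols mark the replicate number and lines join means of 3 arrays. Dusp1 peaked at 1 h in both treatments, Dusp2 stayed above its 0 h level, the inhibitor lines of Dusp4 at 1 and 2 h and of Dusp16 after LPS lay below the control lines, and replicate 1 of Dusp6 and Dusp7 lay low at 0 h.

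Promoters of the 3 genes whose transcripts spanned the most over the 8 groups (Dusp2 by 4.39, Dusp1 by 4.00 and Dusp16 by 2.44 log2 units) are shown because their transcripts varied most after LPS. The sequences are those of RefSeq on GRCm38.p6, the 250 bases before the transcription start, written 5′ to 3′ on the gene's strand. Dusp1 lies on the minus strand (chr17:26508473-26508722), Dusp2 on the plus strand (chr2:127335909-127336158) and Dusp16 on the minus strand (chr6:134792629-134792878). Capitals mark TGACG, the core of the cAMP response element, on either strand and the E-box CACGTG.
Dusp1: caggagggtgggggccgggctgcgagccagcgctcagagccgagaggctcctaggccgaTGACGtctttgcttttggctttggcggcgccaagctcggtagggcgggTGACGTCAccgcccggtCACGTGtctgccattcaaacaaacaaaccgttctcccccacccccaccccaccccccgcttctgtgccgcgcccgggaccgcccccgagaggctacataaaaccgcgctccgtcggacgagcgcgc
Dusp2: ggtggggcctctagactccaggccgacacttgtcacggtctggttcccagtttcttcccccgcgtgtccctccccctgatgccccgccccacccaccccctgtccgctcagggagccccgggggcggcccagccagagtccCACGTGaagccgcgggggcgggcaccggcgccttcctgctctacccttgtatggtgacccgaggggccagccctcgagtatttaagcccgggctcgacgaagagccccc
Dusp16: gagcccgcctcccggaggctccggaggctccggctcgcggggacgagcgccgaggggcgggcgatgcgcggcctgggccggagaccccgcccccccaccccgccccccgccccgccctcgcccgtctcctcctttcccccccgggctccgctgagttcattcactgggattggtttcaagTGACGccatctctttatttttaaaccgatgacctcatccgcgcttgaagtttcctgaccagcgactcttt
The Dusp1 sequence held the full cAMP response element TGACGTCA starting 143 bases before the start, which overlaps 2 matches to the core, another core at 191 bases and an E-box at 126 bases. The Dusp2 sequence held an E-box at 109 bases and no core, and that of Dusp16 held a core at 70 bases and no E-box. Of 32851 promoters of this length, 1.55% held the full element, 17.8% the core and 6.02% the E-box on either strand. The AP-1 element TGANTCA (6.75% of promoters), the kappaB element (7.25%), the CArG box (1.47%) and the TATA element TATAAA (12.4%) had no match in the 6 members' windows that could be read, those of Dusp1, Dusp2, Dusp3, Dusp6, Dusp7 and Dusp16. The GC box GGGCGG, found in 32.7% of promoters, matched in those of Dusp1, Dusp2, Dusp3 and Dusp16. The 6 windows held from 56.4% (Dusp6) to 77.2% (Dusp7) G and C, against a median of 52.4% over the 32851 promoters. The shares of promoters given here were not matched for this content. These matches describe letters only.

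In control cells LPS raised the nuclear phosphatase genes and Dusp16, each with its own time course, and lowered Dusp7. At 1 h limma called 4 of the 7 genes higher, Dusp1, Dusp2, Dusp4 and Dusp16, and none lower. Of all features 2.15% were called higher at that time. At 2 h 3 of 7 were called higher (Dusp2, Dusp4 and Dusp16), against 10% of all features. At 4 h 2 were called higher (Dusp2 and Dusp16, against 19.8%) and 2 lower (Dusp1 and Dusp7, against 32.8%). The share called lower was not above that of all features. The median difference of the 7 genes was 0.89 at 1 h, 0.27 at 2 h and 0.01 at 4 h, beside medians over all features of -0.03, -0.08 and -0.14. Centring the arrays on housekeeping genes turned the last of these medians to 0.14 and moved the share of higher calls among all calls from 66.9% to 84.0% at 1 h, from 39.7% to 63.4% at 2 h and from 37.7% to 71.0% at 4 h. With cyclic loess those shares were 52.2% at 2 h and 53.4% at 4 h. The sign and call of each of these members stayed as given under both scalings.

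Dusp1, which encodes the phosphatase also called MKP-1, stood at 11.24, 12.92 and 13.09 in the 3 untreated control arrays and at 14.72, 14.37 and 14.60 after 1 h of LPS. The groups did not overlap, and the difference was 2.15 ± 0.41, a 4.42-fold rise (adjusted p = 0.00271). At 2 h the levels were back at 11.84, 12.99 and 12.57 (difference 0.05 ± 0.41, adjusted p = 0.95), and the fall from 1 h was 2.09 ± 0.41 with groups apart (adjusted p = 0.0015). At 4 h they were 11.50, 10.90 and 10.57, below the untreated level in replicates 2 and 3 and above it in replicate 1. That difference was -1.43 ± 0.41 (adjusted p = 0.00609). In this course Dusp1 alone of the 7 rose and then fell below its starting mean with both changes called. Without any replicate 3 array the rise at 1 h was 2.46, larger than with all arrays, but not called (adjusted p = 0.0957). The difference at 4 h was then -0.88 (adjusted p = 0.248), and without the replicate 2 arrays it was -1.13 (adjusted p = 0.129). The fit on the arrays compared alone gave 0.0712 for the rise. The highest levels lay near the top of the scale (15.172), so the size of the rise can be understated.

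Dusp2, the gene of the nuclear phosphatase PAC-1, had the largest rise of the 7. It stood at 7.48, 6.52 and 6.25 in untreated control cells, with replicate 3 below the floor. After LPS it read 9.70, 9.55 and 10.48 at 1 h, 9.79, 9.10 and 9.63 at 2 h, and 8.98, 8.47 and 9.24 at 4 h. Every array after LPS lay above every untreated array. The rises were 3.16 ± 0.37 (8.93-fold, adjusted p = 9.05e-06), 2.76 ± 0.37 (adjusted p = 1.03e-05) and 2.15 ± 0.37 (adjusted p = 6.36e-05). The steps from 1 to 2 h (-0.40 ± 0.37, adjusted p = 0.582) and from 2 to 4 h (-0.61 ± 0.37, adjusted p = 0.232) were not called. The second Dusp2 probe lay below the floor on all 3 untreated control arrays and gave lower bounds. It rose at least 3.31-fold by 1 h (adjusted p = 0.000154 over all kept probes). It stood at least 2.52-fold higher after 2 h (0.000351) and at least 1.86-fold higher after 4 h (0.00297). Both Dusp2 probes passed the filter only through groups after LPS, where they were high. The second probe is thus not separate support for the rise.

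Dusp4, which encodes the nuclear phosphatase MKP-2, stood at 6.60, 7.14 and 7.15 in untreated control cells. It read 8.96, 8.24 and 8.40 at 1 h and 8.02, 9.11 and 9.07 at 2 h, then 7.90, 7.25 and 6.99 at 4 h. The levels at 1 and 2 h lay above all untreated levels, and those at 4 h overlapped them. The rises were 1.57 ± 0.29 at 1 h (2.98-fold, adjusted p = 0.00189) and 1.77 ± 0.29 at 2 h (3.41-fold, adjusted p = 0.000102), while the difference at 4 h was 0.41 ± 0.29 (adjusted p = 0.236). From 2 to 4 h Dusp4 fell by 1.36 ± 0.29 (adjusted p = 0.00132). Replicate 1 was the highest array at 1 h and the lowest at 2 h, and without the replicate 1 arrays the step from 1 to 2 h was a called rise of 0.77 (adjusted p = 0.000218) in place of 0.20 ± 0.29 (adjusted p = 0.755). The rise at 1 h had an adjusted p of 0.0895 without the replicate 3 arrays, and the fall from 2 to 4 h one of 0.106 without those of replicate 2 and 0.137 without those of replicate 3.

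Dusp16, the gene of the JNK and p38 phosphatase MKP-7, rose later and held its level. It stood at 8.56, 8.01 and 8.20 in untreated control cells and at 9.37, 8.64 and 9.44 at 1 h. It reached 10.54, 10.22 and 10.55 at 2 h and 10.20, 10.26 and 10.73 at 4 h. The 3 LPS groups lay above the untreated group, and the 2 and 4 h groups overlapped each other. The rise was 0.89 ± 0.21 at 1 h (adjusted p = 0.0205), 2.18 ± 0.21 at 2 h (4.53-fold, adjusted p = 1.76e-07) and 2.14 ± 0.21 at 4 h (4.40-fold, adjusted p = 6.77e-08). The step from 1 to 2 h was 1.29 ± 0.21 (adjusted p = 0.000307) and that from 2 to 4 h was -0.04 ± 0.21 (adjusted p = 0.909). The call at 1 h was lost without control replicate 2 or 3 at 0 h (adjusted p = 0.136 and 0.0791) or control replicate 1 or 3 at 1 h (0.155 and 0.148). It was also lost without all arrays of replicate 1 (0.0725) or 3 (0.437), and in the fit on the 6 arrays alone (0.159).

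Neither cytoplasmic ERK phosphatase gene was called higher at any time. Dusp7 read 8.64, 10.32 and 10.13 in untreated control cells, 8.56, 9.91 and 9.28 at 1 h, 8.27, 9.20 and 9.10 at 2 h, and 7.76, 8.48 and 8.33 at 4 h. It was lower at each later time within each of the 3 numbered sets of samples, and the 4 h arrays lay below all untreated arrays. The differences from 0 h were -0.45 ± 0.46 (adjusted p = 0.901), -0.84 ± 0.46 (adjusted p = 0.205) and -1.505 ± 0.46 (2.84-fold lower, adjusted p = 0.0099). Blocking on the replicate number, the difference at 2 h was also called (adjusted p = 0.00124), as was the step of -0.67 from 2 to 4 h (adjusted p = 0.00665, against 0.304 without it). The call at 4 h was lost without control replicate 2 at 0 h (-1.19, adjusted p = 0.0612), without all replicate 2 arrays (0.0868) or without all replicate 3 arrays (0.150). Leaving out control replicate 1 at 0 h gave a called difference of -1.37 at 2 h (adjusted p = 0.0351).

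Dusp6, a target gene of ERK signalling as well as an ERK phosphatase, read 7.72, 9.49 and 9.996 in untreated control cells, so replicate 1 lay more than 1 log2 unit below the others. All control arrays after LPS lay between 8.29 and 8.92. The differences of -0.53 ± 0.46 at 1 h, -0.65 ± 0.46 at 2 h and -0.29 ± 0.46 at 4 h were not called (adjusted p = 0.856, 0.332 and 0.616). Dusp6 read lower after LPS in replicates 2 and 3 and higher in replicate 1. Without the replicate 1 arrays Dusp6 was lower by 1.12, 1.33 and 0.86 on the log2 scale and called at each time (adjusted p = 0.00498, 0.000227 and 0.003). Without control replicate 1 at 0 h alone, the 2 h difference of -1.33 was called (adjusted p = 0.0201). In that array and in replicate 1 of the untreated inhibitor group, Dusp1, Dusp4, Dusp6 and Dusp7 were below, and Dusp2 and Dusp16 above, the other replicates of the same group.

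Dusp3, the atypical member, varied least, with a span of 0.62 log2 units over the 8 group means. In control cells it ran from 7.59 to 8.46 over the 12 arrays, and the differences from 0 h were 0.20 ± 0.17, 0.27 ± 0.17 and 0.01 ± 0.17 at 1, 2 and 4 h (adjusted p = 0.867, 0.295 and 0.97). The 2 h arrays all lay above the untreated arrays. The second Dusp3 probe rose by 0.31 ± 0.10 at 2 h (adjusted p = 0.0329 over all kept probes), and the mean of the gene's probes by 0.28 (adjusted p = 0.0358).

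Without LPS the inhibitor changed no measured phosphatase gene past the threshold. Limma called 0 of 7 at 0 h and 0 had an unadjusted p under 0.05, against 0.159% of all features called. The differences ran from -0.29 ± 0.46 for Dusp6 to 0.09 ± 0.37 for Dusp2. Their 95% intervals, in the fit without the replicate block, were as narrow as -0.38 to 0.35 for Dusp3. The widest was -0.94 to 0.99 for Dusp7. These widths include the spread between replicate numbers and are not limits of detection. In same-numbered pairs of control and inhibitor arrays Dusp7 read 8.64 and 8.67, 10.32 and 10.32, and 10.13 and 10.17. Dusp6 and Dusp16 were lower with the inhibitor in 3 of 3 pairs, Dusp7 was higher in 3 of 3, and the other genes were mixed. With the replicate block 0 of 7 were called as well. The inhibitor arrays read 11.99, 12.88 and 12.60 for Dusp1, 7.81, 6.50 and 6.20 for Dusp2, 6.19, 7.05 and 7.16 for Dusp4, and 8.06, 7.99 and 7.94 for Dusp16. Each of these sets overlapped its control set.

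After LPS the inhibitor lowered Dusp16 at all 3 times and Dusp4 at 1 h, and no measured member was called higher without the replicate block. At 1 h 2 of 7 genes were called lower (Dusp4 and Dusp16), where 0.78% of all features were. At 2 h 1 of 7 was (Dusp16), against 4.22%, and at 4 h 1 of 7 (Dusp16), against 10.2%. With the replicate block 3 were called at 1 h, Dusp2 then being called higher (adjusted p = 0.0391), 2 at 2 h, with Dusp4 (0.0403), and 2 at 4 h, with Dusp3, where 2.52%, 14.1% and 35.1% of all features were called. The median over the 7 genes was 0.03, -0.05 and -0.13 at 1, 2 and 4 h, and that over all features 0.01, 0.04 and 0.04. At 4 h 55.2% of all calls were higher, a share that was 26.3% with housekeeping centring and 40.7% with cyclic loess.

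**Figure D2:**
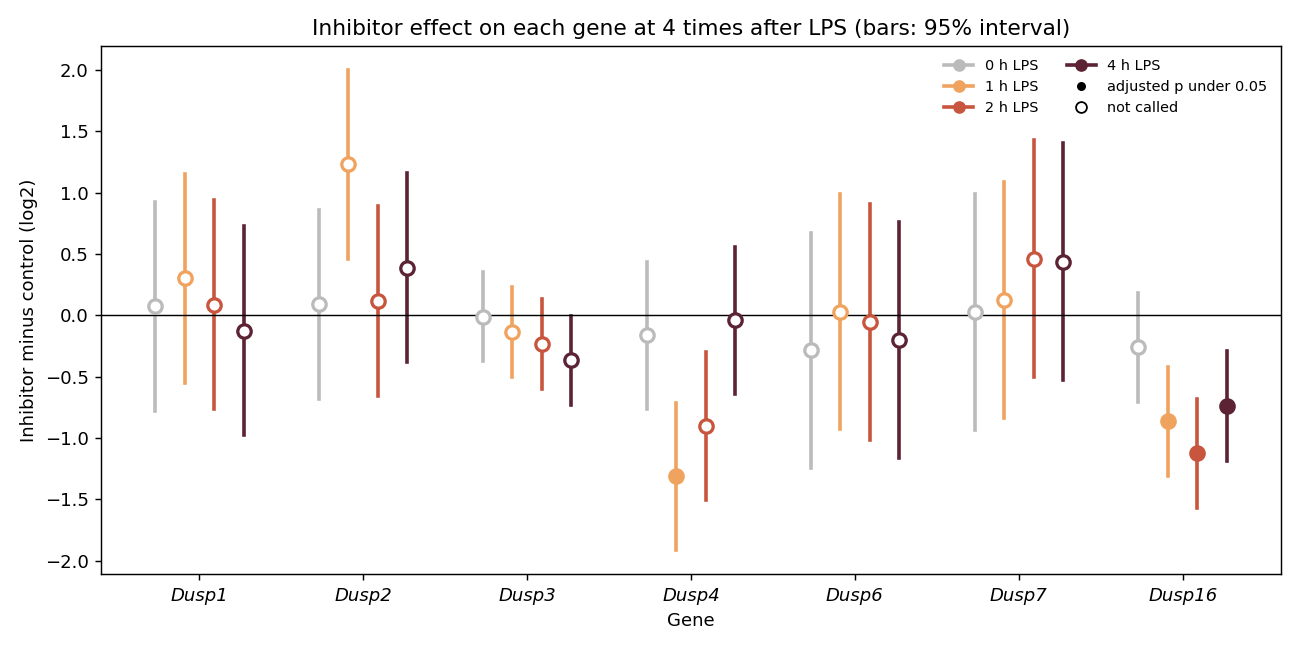
Inhibitor minus control (log2, y axis) for each gene (x axis) at 0, 1, 2 and 4 h of LPS, with 95% intervals from limma; filled points had an adjusted p under 0.05. Filled points lie below 0 for Dusp4 at 1 h and for Dusp16 at 1, 2 and 4 h, and the Dusp2 point at 1 h lies above 0 and is open.

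Dusp16 read 8.10, 8.10 and 8.65 with the inhibitor at 1 h, against 9.37, 8.64 and 9.44 in control cells, so only the highest inhibitor array reached the lowest control array. At 2 h it read 9.23, 9.24 and 9.48 against 10.54, 10.22 and 10.55, and at 4 h 9.76, 9.27 and 9.94 against 10.20, 10.26 and 10.73. At both of these times all inhibitor arrays lay below all control arrays. The differences were -0.86 ± 0.21 at 1 h (adjusted p = 0.0495), -1.12 ± 0.21 at 2 h (2.18-fold lower, adjusted p = 0.00182) and -0.74 ± 0.21 at 4 h (1.67-fold lower, adjusted p = 0.0156), each lower in 3 of 3 same-numbered pairs. The second probe of the gene differed by -0.84 ± 0.18, -1.02 ± 0.18 and -0.84 ± 0.18, called at each time (adjusted p = 0.0191, 0.00123 and 0.00229 over all kept probes). In that same fit the brightest probe was not called at 1 h (adjusted p = 0.0550).

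The 1 h call of Dusp16 lay close to the threshold. It was lost without control replicate 1 or 3 at 1 h (adjusted p = 0.292 and 0.303) and without inhibitor replicate 1 or 2 (0.223 and 0.246). It was lost with no filter (0.0819), with only probes above the floor on every array (0.0609), after background subtraction (0.0510) and in the fit on the 6 arrays alone (0.309). Leaving out all arrays of replicate 1, 2 or 3 gave 0.453, 0.0698 and 0.408, and the difference then lay between -0.66 and -1.03. The 4 h call was lost without inhibitor replicate 2 (-0.55, adjusted p = 0.101) or control replicate 3 (-0.57, adjusted p = 0.0911), and without all arrays of replicate 2 or 3 (0.1 and 0.0993). The 2 h call held under each setting tried. With the replicate block the adjusted p was 0.00202, 3.41e-05 and 0.000864 at 1, 2 and 4 h.

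Dusp4 read 7.35, 7.18 and 7.15 with the inhibitor at 1 h, against 8.96, 8.24 and 8.40 in control cells, with no overlap. The difference was -1.31 ± 0.29 (2.48-fold lower, adjusted p = 0.0183). At 2 h it read 7.69, 7.87 and 7.94 against 8.02, 9.11 and 9.07, again with no overlap, although replicate 1 of the control group lay close to the inhibitor arrays. That difference of -0.90 ± 0.29 was not called (adjusted p = 0.0656), although it was with cyclic loess (0.0496), without control replicate 1 at 2 h (-1.26, adjusted p = 0.00881) and without all replicate 1 arrays (-1.19, adjusted p = 7.08e-06). At 4 h the levels of 7.56, 7.12 and 7.34 overlapped those of the control cells (-0.04 ± 0.29, adjusted p = 0.949, interval -0.64 to 0.56).

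The Dusp4 call at 1 h was lost without control replicate 1 or 3 (adjusted p = 0.161 and 0.0524) or inhibitor replicate 2 or 3 (0.0847 and 0.0994). It was also lost after background subtraction (-1.78, adjusted p = 0.112) and without all arrays of replicate 2 or 3 (0.315 and 0.545). Without all replicate 1 arrays it was -1.16 (adjusted p = 5.94e-05). The second Dusp4 probe lay below the floor on all 3 inhibitor arrays at 1 h and above it on all 3 control arrays, with a bound of at least 1.28-fold lower (adjusted p = 0.0945). At 2 h that probe, above the floor on 2 of 3 inhibitor arrays, differed by -0.45 ± 0.15 (adjusted p = 0.0736). The second probe passed the filter only through the control groups at 1 and 2 h, where it was highest. It is thus not separate support for a lower level with the inhibitor. The third probe exceeded the floor on 1 of 24 arrays and was not tested.

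Dusp2 stood higher with the inhibitor at 1 h, at 10.94, 10.93 and 11.55 against 9.70, 9.55 and 10.48, with no overlap and a higher level in 3 of 3 same-numbered pairs. The difference of 1.23 ± 0.37 was not called (adjusted p = 0.156, interval 0.46 to 2.00). With the replicate block it was (adjusted p = 0.0391). The second probe differed by 1.09 ± 0.27 (adjusted p = 0.0612 over all kept probes). At 2 h the inhibitor arrays read 9.71, 9.33 and 9.83 (difference 0.12 ± 0.37, adjusted p = 0.913) and at 4 h 9.08, 9.08 and 9.69 (0.39 ± 0.37, adjusted p = 0.519). Both of those sets overlapped the control set.

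Dusp1 read 14.93, 14.68 and 14.98 with the inhibitor at 1 h, 12.00, 13.01 and 12.65 at 2 h, and 11.50, 10.65 and 10.43 at 4 h. These sets overlapped those of control cells at each time. The inhibitor arrays were higher in 3 of 3 same-numbered pairs at 1 and 2 h and in 1 of 3 at 4 h. The 1 h levels lay near the top of the scale (15.172), so a difference at that time can be understated. The standard deviations at 1 h were 0.18 in control and 0.16 in treated cells, against 1.02 and 0.46 in the untreated groups. The pooled standard error of Dusp1 is thus wide for the arrays at 1 h. The differences were 0.30 ± 0.41, 0.09 ± 0.41 and -0.13 ± 0.41 (adjusted p = 1, 0.944 and 0.88), with 95% intervals of -0.55 to 1.15, -0.76 to 0.94 and -0.98 to 0.72.

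Dusp7 stood at 8.73, 9.86 and 9.52 with the inhibitor at 1 h, 9.03, 9.49 and 9.44 at 2 h, and 8.12, 8.98 and 8.78 at 4 h. Its differences of 0.46 ± 0.46 at 2 h and 0.44 ± 0.46 at 4 h were higher in 3 of 3 same-numbered pairs and were not called (adjusted p = 0.681 and 0.569). Dusp6 differed by 0.03 ± 0.46, -0.06 ± 0.46 and -0.20 ± 0.46 (adjusted p = 1, 0.969 and 0.825). At 4 h the second Dusp6 probe went the other way, with means of 7.35 with the inhibitor and 7.14 in control cells. The 95% intervals at 1 h were -0.84 to 1.09 for Dusp7 and -0.93 to 0.99 for Dusp6, and at 2 h -0.50 to 1.42 and -1.01 to 0.90. For Dusp6 the standard deviations at 2 h were 0.13 in control and 0.21 in treated cells, against 1.20 and 1.19 in the untreated groups. The untreated groups thus widen the Dusp6 standard error and intervals after LPS.

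Dusp3 read 7.65, 7.67 and 7.25 with the inhibitor at 4 h against 8.14, 7.94 and 7.59 in control cells, lower in 3 of 3 pairs with groups that overlapped. The difference of -0.37 ± 0.17 was not called (adjusted p = 0.145). It was called with the replicate block (adjusted p = 0.00981), with housekeeping centring (-0.51, adjusted p = 0.0288) and as the mean of the gene's 3 probes (-0.35, adjusted p = 0.0123). The second Dusp3 probe was called lower (-0.37 ± 0.10, adjusted p = 0.0135 over all kept probes) and the third was not (-0.31 ± 0.11, adjusted p = 0.0537). At 1 and 2 h the brightest probe had means of 7.94 and 7.91 with the inhibitor, against 8.08 and 8.15 in control cells. It was lower in 3 of 3 pairs at both times and was not called. At 2 h the second probe had means of 7.28 and 7.59, and its groups did not overlap.

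**Figure D3:**
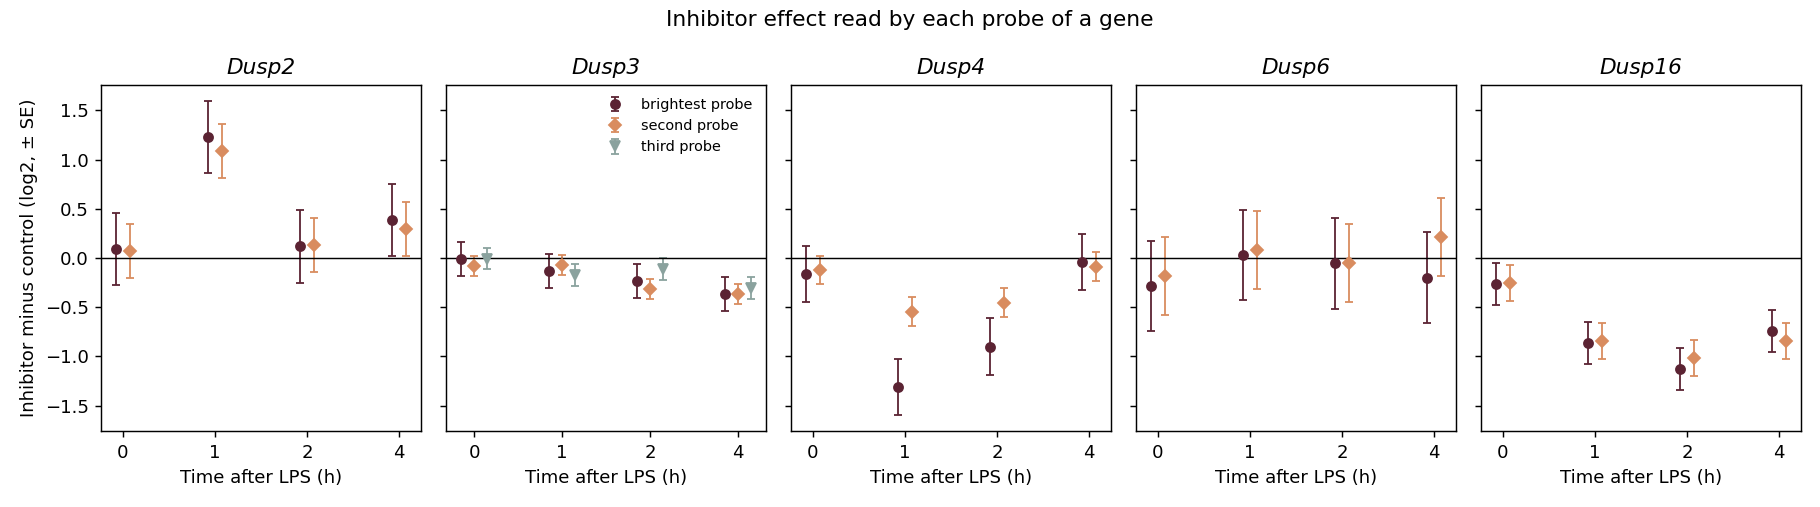
Inhibitor minus control (log2 ± standard error, y axis) by each kept probe of the 5 genes with more than 1 kept probe, at 0, 1, 2 and 4 h of LPS (x axis, not to scale). The probes of Dusp2 and of Dusp16 lie close together, at 1.23 and 1.09 for Dusp2 at 1 h, and the second Dusp4 probe lies nearer 0 than the brightest (-1.31) at 1 h, where it was below the floor on all 3 inhibitor arrays and has only a bound.

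Within inhibitor-treated cells LPS raised Dusp1 and Dusp2 at 1 h, with 2 of 7 genes called higher against 1.73% of all features. Dusp1 rose by 2.37 ± 0.41 (adjusted p = 0.0011) and Dusp2 by 4.30 ± 0.37, a 19.7-fold rise (adjusted p = 1.14e-07). Dusp2 started from 7.81, 6.50 and 6.20, with replicate 3 below the floor, so its fold rests on a spread baseline near the floor. Dusp4 and Dusp16, both called in control cells at 1 h, differed by 0.42 ± 0.29 (adjusted p = 0.679) and 0.29 ± 0.21 (adjusted p = 0.736). At 2 h 3 of 7 were called higher (7.4% of all features): Dusp2 by 2.79 ± 0.37, Dusp4 by 1.03 ± 0.29 and Dusp16 by 1.32 ± 0.21 (adjusted p = 1.44e-05, 0.0153 and 0.000144). The Dusp4 call was lost without inhibitor replicate 1 at 0 h (adjusted p = 0.0946) or inhibitor replicate 3 at 2 h (0.0536).

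At 4 h in these cells 2 genes were higher (19.7% of all features), Dusp2 by 2.44 ± 0.37 and Dusp16 by 1.66 ± 0.21 (adjusted p = 2.07e-05 and 2.98e-06). Dusp1 was the 1 gene called lower (26.7% of all features), where it fell by 1.63 ± 0.41 (adjusted p = 0.00279). With the replicate block 5 of 7 were called, against 59.2% of all features in that fit, with Dusp7 (-1.09 ± 0.46, adjusted p = 0.0587 without the block and 4.52e-05 with it) and Dusp3 (-0.35 ± 0.17, 0.112 and 0.00802), which was also called as the mean of its probes (0.0253). Dusp7 was also called without inhibitor replicate 1 at 0 h (-1.62, adjusted p = 0.00732). Dusp4 differed by 0.54 ± 0.29 (adjusted p = 0.135). Between 1 and 2 h in the treated cells Dusp1 fell by 2.31 ± 0.41 and Dusp2 by 1.51 ± 0.37 (adjusted p = 0.000747 and 0.00978), and Dusp16 rose by 1.03 ± 0.21 (adjusted p = 0.00295). Over that step 3 of 7 were called, against 10.6% of all features, where in control cells 2 of 7 were (Dusp1 and Dusp16), against 13.2%. The Dusp2 fall was lost without inhibitor replicate 3 at 1 h (adjusted p = 0.0582) or after background subtraction (0.142). From 2 to 4 h 1 of 7 was called in treated cells (Dusp1, -1.69 ± 0.41, adjusted p = 0.00361), against 29.9% of all features, and 2 of 7 in control cells (Dusp1 and Dusp4), against 28.2%. With the block it was 3 in treated cells, with Dusp3 (adjusted p = 0.00531) and Dusp7 (0.00501), against 44.3% of all features in that fit. As the mean of its probes Dusp3 was called too (0.00619). In the fits on the arrays compared alone Dusp4 was called in treated cells from 1 to 2 h (0.0195) and from 2 to 4 h (0.0383). The control fall of Dusp1 was lost without control replicate 2 at 2 h (adjusted p = 0.0623).

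Leaving out a whole replicate set moved further calls. In treated cells the Dusp1 rise at 1 h was lost without replicate 3 (adjusted p = 0.156) and its fall at 4 h without replicate 2 or 3 (0.0923 and 0.0969). The Dusp4 rise at 2 h was lost without replicate 2 or 3 (0.123 in both). The Dusp1 fall from 1 to 2 h was lost without replicate 3 in control cells (0.0686) and in treated cells (0.0640). Its fall from 2 to 4 h was lost without replicate 2 or 3 in control cells (0.202 and 0.201) and in treated cells (0.128 and 0.136). The Dusp2 fall from 1 to 2 h in treated cells was lost without replicate 2 or 3 (0.144 and 0.106). Without replicate 1, which stood apart, Dusp6 was called lower in treated cells at 1, 2 and 4 h (-0.79, -1.02 and -0.72; adjusted p = 0.0408, 0.00234 and 0.0101), as it was in control cells. Dusp7 was then called lower in control cells at 2 h (-1.07, adjusted p = 0.000264) and from 2 to 4 h (-0.75, adjusted p = 0.00354). In treated cells it was called lower at 2 h (-0.79, adjusted p = 0.00381), at 4 h (-1.37, adjusted p = 1.21e-05) and from 2 to 4 h (-0.58, adjusted p = 0.0151). In treated cells Dusp4 then rose from 1 to 2 h (0.74, adjusted p = 0.000405) and fell from 2 to 4 h (-0.68, adjusted p = 0.000265).

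Whether the inhibitor effect itself changed with time was tested as an interaction in the same fit. Limma called 0 of 7 members in each of 5 such comparisons. Those of 1, 2 and 4 h against 0 h called 0.0244%, 0.878% and 8.02% of all features, and those of 2 and 4 h against 1 h called 0.183% and 7.99%. At an unadjusted p under 0.05 stood Dusp2 and Dusp4 for 1 h against 0 h, Dusp16 for 2 h against 0 h, Dusp2 for 2 h against 1 h and Dusp4 for 4 h against 1 h. In this fit no member's inhibitor effect was thus shown to differ between times.

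The Dusp4 effect was closer to 0 at 4 h than at 1 h by 1.27 ± 0.41 (adjusted p = 0.0612). That was called with the replicate block (0.0339), in the fit on the 12 arrays alone (0.0326), without control replicate 1 at 4 h (1.53, adjusted p = 0.0314) and without all replicate 1 arrays (1.27, adjusted p = 0.000146). Against 0 h the Dusp4 effect was lower by 1.15 ± 0.41 at 1 h (adjusted p = 1), and without the replicate 1 arrays by 1.12 (adjusted p = 0.0155) at 1 h and 1.15 (adjusted p = 0.000854) at 2 h. The Dusp16 effect was lower by 0.86 ± 0.30 at 2 h than at 0 h (adjusted p = 0.284, and 0.0326 with the block). For Dusp2 the effect at 1 h exceeded that at 0 h by 1.14 ± 0.52 (adjusted p = 1) and that at 2 h by 1.11 ± 0.52 (adjusted p = 0.741).

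Ordered by group mean, Dusp4 ran from control 2 h (8.73) and control 1 h (8.54), which overlapped, through inhibitor 2 h (7.83), control 4 h (7.38), inhibitor 4 h (7.34), inhibitor 1 h (7.22), control 0 h (6.96) and inhibitor 0 h (6.80), each overlapping the next. A gap without overlap lay only between control 1 h and inhibitor 2 h. Dusp16 ran from control 2 h (10.44) and control 4 h (10.39) over a gap to inhibitor 4 h (9.66), inhibitor 2 h (9.31), control 1 h (9.15), inhibitor 1 h (8.28), control 0 h (8.26) and inhibitor 0 h (7.998), with overlap at each later step. In that order the inhibitor group at 1 h stood beside untreated control cells. Dusp2 had its gaps below inhibitor 1 h (11.14), the highest group, and below control 4 h (8.89), which stood above inhibitor 0 h (6.84) and control 0 h (6.75). Dusp1 had its 1 gap between control 1 h (14.56) and inhibitor 2 h (12.55). The neighbours in the order of Dusp3, Dusp6 and Dusp7 all overlapped.

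The members did not share 1 pattern over the 8 group means, which rest on the same 24 arrays. Pearson's r, given as a description over 8 means, was -0.88 between Dusp7 and Dusp16, -0.76 between Dusp2 and Dusp6 and 0.62 between Dusp3 and Dusp4. Among 1636 named features whose means spanned at least 1 log2 unit, those most like Dusp1 were Egr2 (r = 0.97), Mtss1 (0.94) and Fos (0.94). Egr2 and Fos are immediate early transcription factor genes, and Egr2 peaked at 13.31 in control and 12.98 in treated cells at 1 h. Those most like Dusp2 were Pim1, a kinase gene (0.96), Nfkbia, the gene of an inhibitor of NF-kB (0.96), and Plk2 (0.95). Those most like Dusp4 were Flrt3 (0.97), Il23a, a subunit of interleukin 23 (0.97), and Itpkc, a kinase of inositol trisphosphate (0.95).

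Serpinb2, the plasminogen activator inhibitor gene, Cav1, the caveolin gene, and Slc7a11, the cystine transporter gene, were the 3 most like Dusp16, each with r = 0.99. Cav1 stood at 10.04 in control and 7.83 in treated cells at 1 h, and at 13.18 and 11.84 at 4 h. Tubb2b, Rnf181 and Fbxw4 were most like Dusp7, each with r = 0.99, and these 3 were lowest in control cells at 4 h. Dusp3 and Dusp6 spanned less than 1 log2 unit, so no gene was set beside them.

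**Figure D4:**
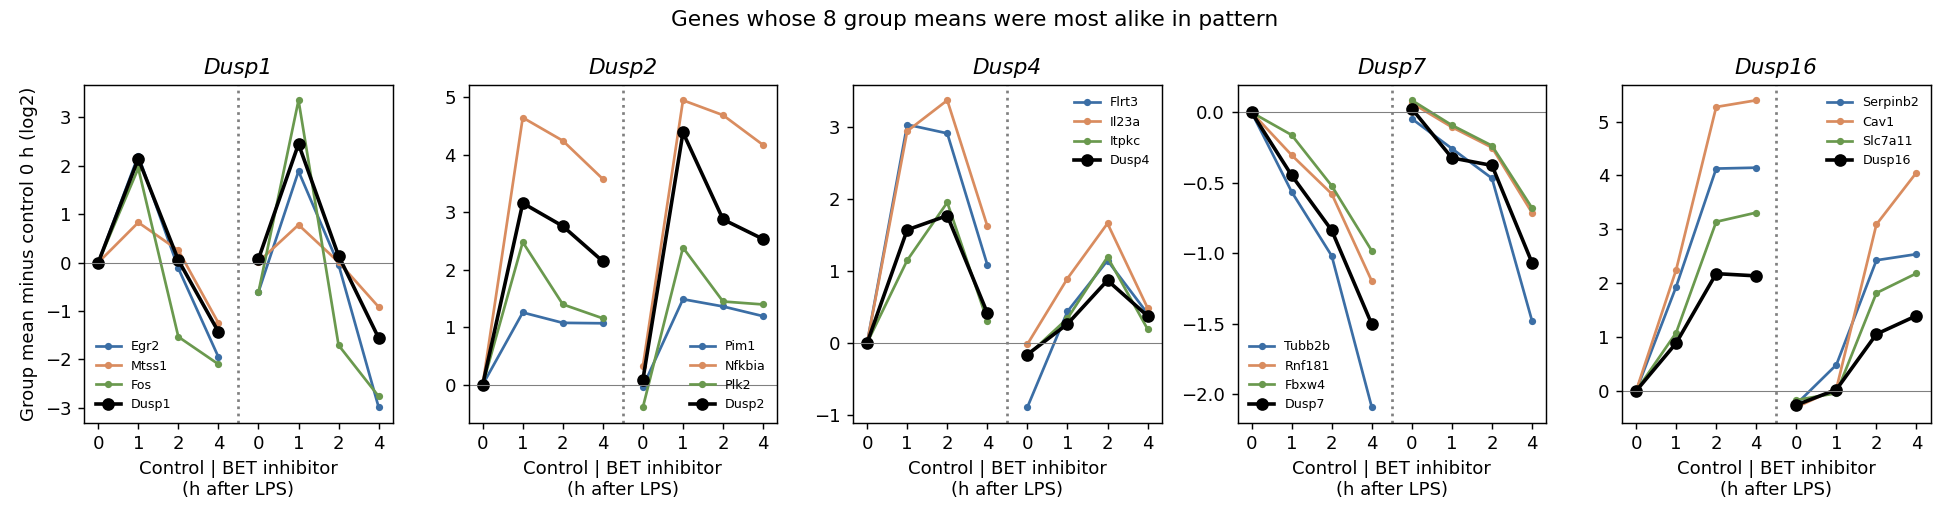
Group means minus the control 0 h mean (log2, y axis) for 5 members (black) and the 3 genes whose 8 group means had the highest Pearson r with each (colours), at 0, 1, 2 and 4 h of LPS in control (left) and inhibitor-treated cells (right; x axis not to scale). The Dusp1 set peaks at 1 h in both treatments, and the Dusp4 and Dusp16 sets lie lower on the right at 1 and 2 h.

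Around these phosphatases 53 further genes were tested from 6 lists, of the MAP kinase pathway and of other genes named Dusp. The other Dusp genes were taken by name, whether or not they act on MAP kinases. The lists were other Dusp genes (9 tested), MAP kinases (5), MAP kinase kinases (5), kinases of those (13), kinases activated by MAP kinases (6) and other dampers of the pathway (15). In control cells at 1 h 5 of 53 were called higher and 0 lower, beside 2.15% and 1.06% of all features. Errfi1, an inhibitor of the EGF receptor, rose by 2.64 ± 0.39 (adjusted p = 0.000172). Dusp8, another MAP kinase phosphatase gene, rose by 1.72 ± 0.33 (adjusted p = 0.00318), Map3k8, which activates ERK signalling downstream of Tlr4, by 1.62 ± 0.25, Mapk6, an atypical MAP kinase gene, by 0.80 ± 0.14, and Mapkapk2, the p38-activated kinase gene, by 0.47 ± 0.13. The Mapkapk2 call (adjusted p = 0.0394) was lost without the replicate 1 arrays (0.236).

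At 4 h of LPS in control cells 15 of the 53 were called higher and 18 lower, beside 19.8% and 32.8% of all features, and the share called lower was near that of all features. These counts became 21 and 11 with housekeeping centring and 19 and 16 with cyclic loess, where 47.7% and 46.7% of all features were called in either direction. Map3k8 was higher by 2.64 ± 0.25, Mapkapk2 by 1.82 ± 0.13, Tab2, an adaptor of Tak1, by 1.37 ± 0.16, Dusp28 by 1.25 ± 0.15, Map2k1 by 1.22 ± 0.17, Map2k4 by 1.00 ± 0.17, Mapk14, the p38 alpha gene, by 0.87 ± 0.13, Mapk6 by 0.73 ± 0.14 and Rps6ka5 by 0.49 ± 0.13. Among the dampers Spred1, an inhibitor of Ras signalling, was higher by 1.78 ± 0.21 and Rasa2, a Ras GTPase-activating protein gene, by 1.32 ± 0.17. Among the falls, Mknk2 fell by 2.41 ± 0.21, Map3k1 fell by 1.28 ± 0.19 and Mknk1 fell by 1.25 ± 0.14. The p38 activator Map2k3 fell by 0.79 ± 0.13, Nlk fell by 0.74 ± 0.12 and the adaptor gene Dok2 fell by 2.10 ± 0.14. Dusp23 (-0.90 ± 0.23) and Map2k5 (-0.39 ± 0.12) lost their calls with housekeeping centring (adjusted p = 0.0523 and 0.553), and Map2k5 also with cyclic loess (0.0683) and without the replicate 1 arrays (0.0611).

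In the 4 h control group Map3k12, Spry3 and Dusp18 lay below the floor on all 3 arrays, and were at least 1.87-fold, 1.46-fold and 1.08-fold lower (adjusted p = 9.40e-06, 3.90e-05 and 0.000347). Dusp14 was below the floor on all untreated arrays and above it on 2 of 3 at 4 h (adjusted p = 0.009), and has no fold.

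By limma's adjusted p 0 of the 53 were called for the inhibitor at 1 h, beside 1.3% of all features. An unadjusted p under 0.05 was held by 5, 2 higher and 3 lower. The share of all features under that rule is not given here, so this count is not read as a result. At 2 h 3 were higher and 7 lower, beside 2.72% and 4.22% of all features. At 4 h 7 were higher and 4 lower, beside 12.6% and 10.2%, shares near those of all features. The 4 h counts became 4 and 9 with housekeeping centring and 5 and 6 with cyclic loess, where 22.8% and 22.4% of all features were called in either direction. At 4 h Mknk2, an ERK- and p38-activated kinase gene, was higher by 2.44 ± 0.21 (5.43-fold, adjusted p = 6.87e-08). Map2k3 was higher by 0.87 ± 0.13 (adjusted p = 4.19e-05), Ppm1d, a phosphatase gene, by 0.83 ± 0.19, Map3k14 by 0.79 ± 0.17, Mapkapk2 by 0.50 ± 0.13 and Mapk14 by 0.44 ± 0.13. The last pair lost their calls with housekeeping centring (adjusted p = 0.0815 and 0.104), and Mapk14 also with cyclic loess (0.073). The dampers Dok1 and Spred1 differed by -0.74 ± 0.19 and -0.67 ± 0.21 (adjusted p = 0.0075 and 0.0236). No other Dusp gene was called at 1 or 4 h, and 1 of 9 was lower at 2 h, Dusp22 (-0.48 ± 0.11, adjusted p = 0.00801), named here after its values were seen.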

How the data were processed

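The 24 arrays carry the deposited log2 intensities. Their ranked values differ by at most 0.004 at 99% of ranks, as after quantile normalization between arrays. The submitters' processing notes name limma, with no version, and no source used here states a background correction. A second deposited table, of non-normalized values, was not used: its 72 value columns are named by array positions that no label pairs with a sample.

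Probes took their gene from the platform annotation (23978 probes with 1 symbol, 1719 with none, 0 with several), checked by Entrez ID against RefSeq GRCm38.p6, where 16 IDs had no match and 0 symbols changed. The background floor was the 99th percentile, 6.455, of 1303 olfactory and vomeronasal receptor probes. A probe was kept when above it on all 3 arrays of at least 1 group (10887 of 25697), and the kept probe of highest mean stood for its gene. Limma 3.58.1 in R 4.3.3 fitted 8 group means to the 24 arrays (16 residual degrees of freedom), with Benjamini-Hochberg adjustment within each contrast. The code was tested on simulated data.

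Samples that share a replicate number deviated together across groups. The deviations from group means of all 84 same-numbered pairs correlated at over 0.1 (0.106 to 0.847). Other pairs ran from -0.727 to 0.358 with a median of -0.35, so the ranges overlapped. Deviations cancel within each group, so low values of other pairs follow in part from high same-numbered values. Each of the 24 samples had its highest mean correlation with samples of its own number. Where a probe lies below the floor in a whole group, the fold is a lower bound, taken with those arrays at the floor.

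All measured members are described. From each background list the genes named are the 2 with the largest rise and the 2 with the largest fall among called genes, in the control comparisons of 1 and 4 h with 0 h and in the inhibitor comparisons at 1 and 4 h. For likeness, the 3 genes of highest r are named. Members and lists were chosen with earlier results of these data known. Alternatives were another filter, background subtraction, other scalings, the mean of a gene's probes, the replicate block, the arrays compared alone, and leaving out arrays, and added after seeing the data, each kept probe as a feature and leaving out whole replicate sets.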

Additional observations from a re-analysis of the deposited data

How the results depend on the processing

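None of the 133 member results turned a called direction under the alternatives run (2465 of 2566 values kept direction and side of the threshold, 58 lost a call and 43 gained one); a sign change with no call on either side was counted as kept. The number of arrays limits precision, Dusp1 lies near the top of the scale, and differences of dim probes are understated without background subtraction.

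At 1 h the inhibitor calls, 2 in the main fit, numbered 1 with no filter, with each kept probe as a feature and with only the arrays compared. They numbered 0 after background subtraction or with only probes above the floor on every array, and 3 with the replicate block. Of all features 0.573% were called with no filter and 1.26% after background subtraction. The share was 0.977% with only probes above the floor on every array and 2.52% with the block. At 2 h there were 2 with the replicate block (14.1% of all features) and 2 with cyclic loess (7.22%). At 4 h there were 2 with the block (35.1% of all features), 2 with housekeeping centring (22.8%) and 2 with the mean of probes (23.5%). Keeping only probes above the floor on every array tests 5 members, without Dusp2 and Dusp4. It gave 2 LPS calls at 1 h (2.76% of all features) and 1 at 2 h (24.4%) in control cells. In treated cells it gave 1 at both times (2.6% and 17.2%). For 4 h against 2 h in control cells it gave 1 (27.9%). The arrays compared alone gave 2 calls at 1 h of LPS in control cells. With the replicate block 5 were called at 4 h in treated cells (59.2% of all features) and 3 for 4 h against 2 h (44.3%). For the latter the mean of probes (30.3%) and the arrays compared alone gave 2 each. The block gave 1 interaction for 2 h against 0 h (3% of all features) and 1 for 4 h against 1 h (19.1%), and the arrays compared alone 1 for the latter. The block changed no member call other than those given beside the results.

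Leaving out 1 array or a replicate set, the counts ran from 0 to 0, 0 to 2, 1 to 2 and 0 to 1 for the inhibitor at 0, 1, 2 and 4 h. For LPS at 1, 2 and 4 h they ran from 1 to 4, 3 to 5 and 2 to 5 in control and from 1 to 3, 2 to 5 and 2 to 5 in treated cells. For 2 h against 1 h they ran from 1 to 3 in control and 1 to 4 in treated cells, and for 4 h against 2 h from 0 to 3 in both. Interactions numbered 0 to 1 for 1 and 2 h against 0 h and for 4 h against 1 h, and 0 to 0 otherwise. Shares of all features are not given here for fits that left out arrays. Nor are they given for the arrays compared alone or for each probe as a feature, so these counts describe stability only. Detection p-values, another background correction and a slide block were not run, since they need the table that could not be mapped to samples.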
